A study of Sylvia borin with 20 samples.

Results

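The genes described here encode the nuclear part of the respiratory chain, the subunits of complexes I to V that are made in the cytosol and imported into mitochondria. They were chosen by gene name, as every symbol that begins with NDUFA, NDUFB, NDUFC, NDUFS, NDUFV, UQCR, COX4 to COX8 or ATP5, or that is SDHA, SDHB, SDHC, SDHD or CYC1. The rule takes 73 of the 20898 symbols in the tables, and no expression value was used for it. By complex, these are 34 genes of complex I and 8 assembly factors that carry an NDUFAF name, 4 genes of complex II, 3 of complex III, 7 of complex IV and 17 of complex V. NDUFA4 and its paralog NDUFA4L2 were placed with complex IV. Some subunits were not analysed here, among them CYC1, COX4I1, COX5A, COX5B, UQCRB, UQCRC1, UQCRC2, UQCRFS1 and ATP5MC2. The subunits that the mitochondrial genome encodes were not analysed here either.

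The RNA came from whole blood of 10 wild garden warblers caught on spring migration at an island stopover, and each bird was bled 2 times. The fat libraries (n = 10) are from the fifth day in an individual cage with mealworms and water ad libitum, and the lean libraries (n = 10) are from the same birds on day 1. All birds were picked as lean at capture by their body mass, so that refueling, captivity, diet and date cannot be told apart in the comparison. The sources used here give neither age nor sex. Whole blood of birds mixes nucleated erythrocytes with thrombocytes and white cells, and bulk RNA cannot tell fewer cells of a type from less RNA per cell.

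Electrons from NADH enter the chain at complex I, and those from succinate enter at complex II, a flavoprotein enzyme that is also part of the citrate cycle. Both pass them to ubiquinone, and from there they run through complex III and cytochrome c to complex IV, which reduces oxygen to water. Complexes I, III and IV pump protons, and complex V, the ATP synthase, makes ATP as protons flow back through its membrane ring. Red cells of mammals lose their mitochondria when they mature, whereas the nucleated red cells of birds keep them.

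Levels are given as FPKM (mapped fragments scaled for the length of the gene and the size of the library), divided by a size factor per library so that the typical gene has the same level in all libraries. Depth was 1.27 to 3.16 gigabases of aligned reads in fat libraries and 0.882 to 4.71 gigabases in lean libraries. In fat libraries 3727 to 4395 symbols reached 1 FPKM, against 4430 to 5289 in lean libraries, fewer in 10 of 10 birds (exact sign-flip test, two-sided, p = 0.00195, adjusted p = 0.00391 over 4 library measures). Of the 7800 symbols tested, 1034 had an adjusted p under 0.05 in the model with a term for each bird, 404 of them higher and 630 lower in fat birds. That count was 554, 632, 663 and 687 without bird 10, 2, 5 and 6. Some lists of blood cell markers moved with condition. All 5 of the thrombocyte markers tested were lower in fat birds, and the sum of that list was 19 to 45.2 FPKM in fat and 28.2 to 115.7 FPKM in lean libraries, lower in 10 birds, with THBS1 at 0. The erythroid sum, most of it HBAA, was 167105 to 301116 FPKM in fat and 123378 to 187795 FPKM in lean libraries, higher in 10 birds. HBAA itself was higher in 10 birds but was not called in limma (log2 difference 0.62, SE 0.33, adjusted p = 0.221, and 0.110 without the bird term). Its mean was 219015 FPKM (SD 44012) in fat and 141249 FPKM (SD 22155) in lean libraries. With a trend, limma draws each SE toward that of genes of like level, so this SE is not the spread of HBAA alone. The missing call is thus weak ground for an absent change, and the paper reports HBAA as differentially expressed. Of the 10 erythroid genes, 9 had a difference above 0 and 2 were called higher (20%, against 5.18% of all symbols). That share rests on 2 genes. SLC4A1 went the other way, lower in 7 birds and not called (log2 difference −0.10). Heterophil markers summed to 1.65 to 11.1 FPKM in fat and 6.51 to 43.1 FPKM in lean libraries, lower in 9 birds, with LYZ at 0. Sums of T cell, muscle and skin or vessel markers were at most 0.958, 3.67 and 2.04 FPKM in any library, with CD3E, ACTA1, MB and COL1A2 at 0. The monocyte sum was 0 to 1.81 FPKM in fat and 0.465 to 4.08 FPKM in lean libraries, lower in 8 birds, with MARCO and C1QB at 0, and CSF1R was called lower (adjusted p = 0.0191). The B cell sum was at most 13 FPKM.

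The respiratory chain genes covered a wide span of levels in blood. Among the highest were ATP5F1E, the epsilon subunit of the ATP synthase, with a median of 204 FPKM in fat and 161 FPKM in lean libraries, and ATP5PO, a subunit of its stalk, with 168 and 135 FPKM. Of complex I, NDUFS7 and NDUFA12 were highest, both with a median of 120 FPKM in fat birds. A total of 42 genes were above 0 in all 20 libraries. Another 6 were listed at 0 in every library, COX6C, NDUFA4, NDUFA4L2, NDUFC1, NDUFC2 and SDHC, and 3 more (ATP5ME, NDUFAF4 and NDUFB6) stayed under the mean of 0.1 FPKM needed for the test. The other 64 genes were tested. Reads were mapped to the zebra finch, another species, and an entry of 0 for a gene of every mitochondrion such as SDHC or NDUFC1 can be a failed estimate. Of the 6 genes at 0, 5 are named in the annotation of the garden warbler's own genome.

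**Figure D1:**
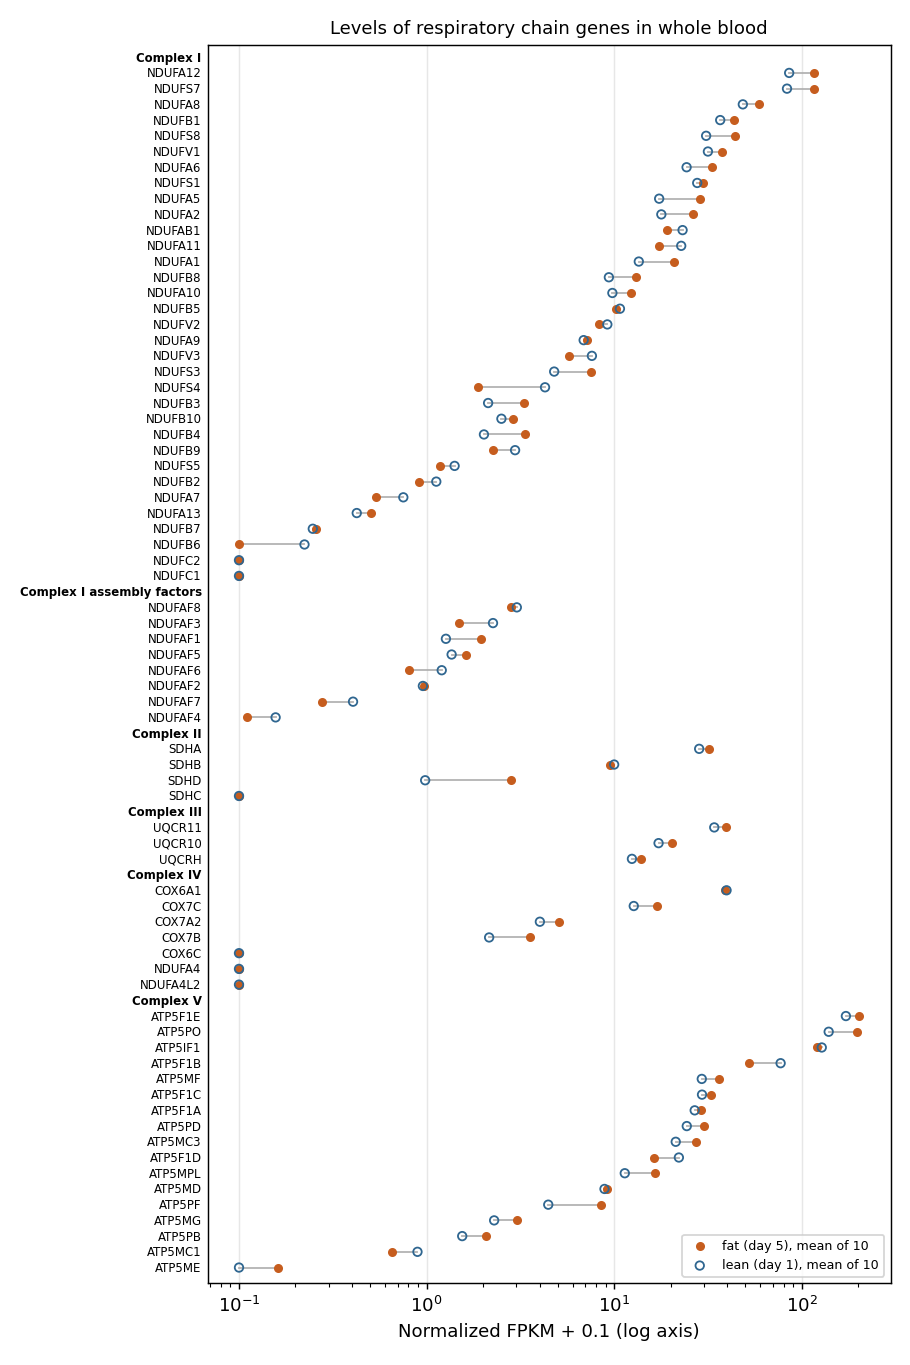
Mean normalized FPKM plus 0.1 (log axis) of the respiratory chain genes reported here in 10 fat libraries (filled points) and 10 lean libraries (open points), by complex and by level. Points at the left edge mark genes listed at 0, and for most genes the gap between fat and lean is small beside the span of levels between genes.

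In fat birds 10 of the 64 genes tested were higher and 1 was lower (limma with a bird term, adjusted p under 0.05 over all 7800 symbols). Of all symbols, 5.18% were called higher and 8.08% lower, and the genes of the respiratory chain called higher make up 15.6% of those tested. The genes that rose were NDUFS3, NDUFS7, NDUFS8, NDUFA2, NDUFA5, NDUFA6 and NDUFA12 of complex I, SDHD of complex II, and ATP5PF and ATP5PO of the ATP synthase. The gene that fell was ATP5F1B, the catalytic beta subunit of the ATP synthase. The rises were small, from 0.46 to 0.95 on the log2(FPKM + 0.1) scale except for SDHD at 2.0. For genes at low levels, and more so with entries at 0, this difference depends on the constant added. That of SDHD ran from 0.95 to 2.80 over the other ways of processing. The median log2 difference of the 64 genes was 0.23, against −0.10 for all symbols. Of the 64 genes, 45 had a difference above 0, against 3352 of the 7800 symbols (43%). The background differed among symbols of higher level. With a mean of at least 1 FPKM required, the median was 0.28 for the 56 genes left and 0.03 for all 4605 symbols. In that fit 13 of the 56 genes were called higher and 3 lower, beside 457 and 511 of the 4605 symbols. By bird, 12 of the 64 genes were higher in at least 9 of 10 birds, against 6.4% of all symbols, and 2 were lower in at least 9, against 8.17%.

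The direction of the typical gene depended on the scaling. Size factors ran from 0.754 to 1.07 in fat libraries and from 1.06 to 1.28 in lean libraries. Each of the 10 birds had the smaller factor when fat, and the sign-flip test gave this shift an adjusted p of 0.00391. Division by the size factor thus raised fat levels relative to lean levels in every bird. On FPKM as deposited, 2 genes were called higher and 4 lower, where 0.962% and 18.5% of all symbols were, with medians of −0.06 for the 64 genes and −0.35 for all symbols. With TPM as deposited, 1 was called higher and 6 lower, against 0.679% and 25.1% of all symbols, and the medians were −0.15 and −0.43. Under quantile normalization 4 were higher and 3 lower, against 4.04% and 4.49%, with medians of 0.25 and 0.05. The 11 genes called kept the sign of their difference under all of these scalings. Differences below are relative to the typical gene of a library, and the part of the changed blood cell markers in them was not tested.

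Without a bird term 2 of the 64 genes were called, ATP5PF and SDHD, both higher in fat birds, against 4.76% of all symbols (1.49% higher and 3.27% lower). Leaving out 1 bird at a time gave 8 to 11 genes called higher, not always the same ones. Of the 11 genes called with all birds, 8 to 11 were called again. Without bird 3, for example, ATP5PD and NDUFA10 were called higher and NDUFA2 and NDUFA6 were not. With both birds 8 and 10 left out, whose bird codes in the labels differ from the published ones, limma called none of the 64 genes and 301 of all symbols. At an unadjusted p under 0.05 that fit had 12 of the 64 genes higher and 5 lower, where 8.88% and 14.6% of all symbols were. Within single birds the median difference of the genes was above 0 in 9 of 10 birds. It was 0.74 in bird 8, −0.01 in bird 4 and 0.02 to 0.30 in the rest. In the fit without bird 8 the median log2 difference of the 64 genes was 0.15, against 0.23 with all birds.

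**Figure D2:**
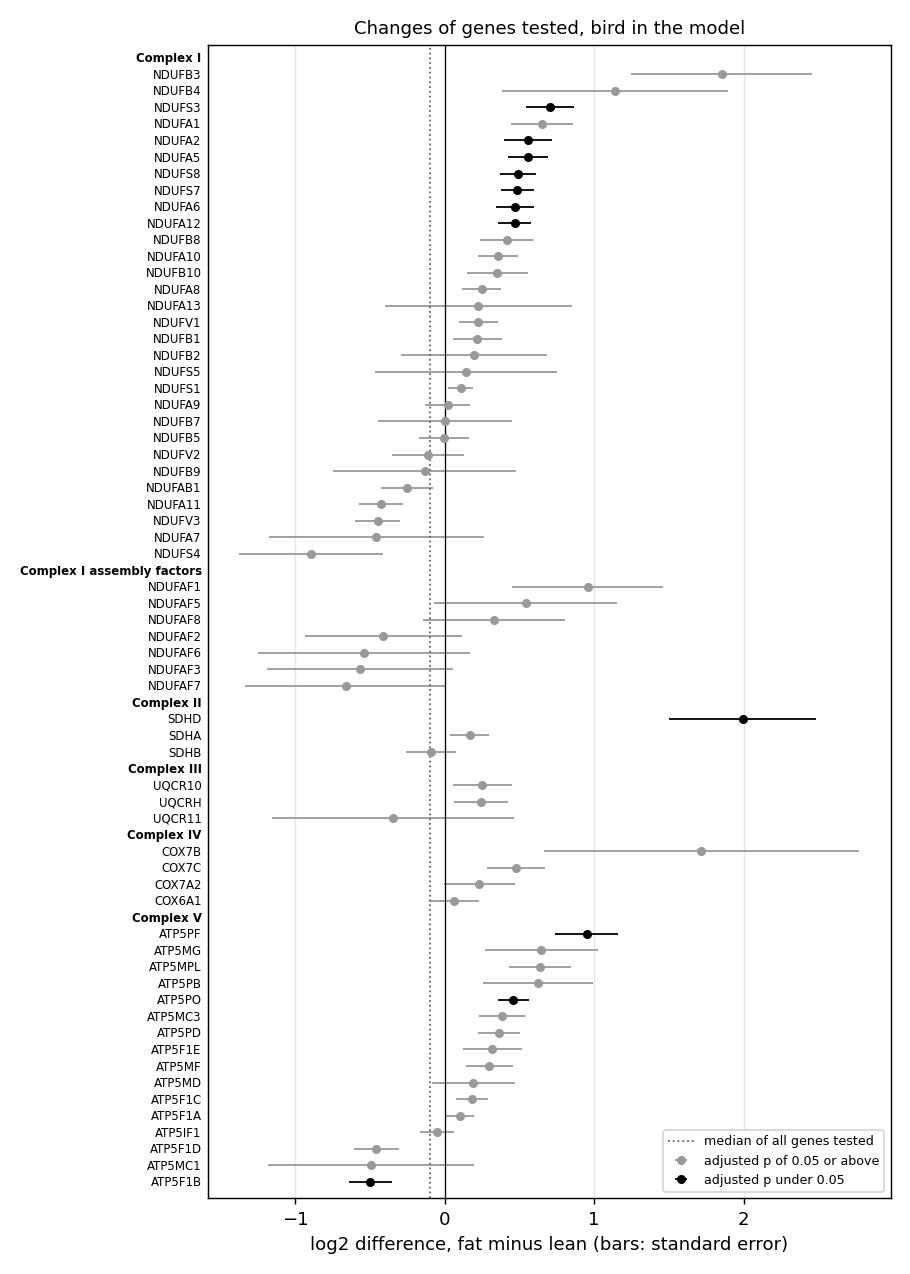
Log2 difference between fat and lean libraries (fat minus lean, bars show the standard error, 10 birds) of the genes tested and reported here, by complex, with genes called in black. The dotted line marks the median of all symbols at −0.10. Most genes of each complex lie to the right of it, but most assembly factors of complex I do not.

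Complex I showed the most calls and had a median log2 difference of 0.22. It had 7 of 31 genes tested higher in fat birds (22.6%) and none lower, where 5.18% and 8.08% of all symbols were. These calls depended on the scaling. On FPKM as deposited no gene of complex I was called higher, and NDUFA11 and NDUFV3 were called lower. With TPM as deposited none was called higher either, and NDUFA11, NDUFAB1 and NDUFV3 were called lower. Under quantile normalization NDUFA5 and NDUFS3 were called higher and NDUFA11 lower. Of its core subunits, which between them hold the flavin and the iron-sulfur clusters of the matrix arm, 3 rose. NDUFS7 and NDUFS8 carry the iron-sulfur clusters at the end of that electron path, near the site where ubiquinone binds, and NDUFS3 is a core subunit beside them. NDUFS7 had 78.2 FPKM in the lowest, 120 in the median and 156 in the highest fat library, against 62.7, 74.9 and 134 FPKM in lean libraries. Its ranges overlapped, yet the fat library was higher in 9 of 10 birds (log2 difference 0.49, SE 0.11, adjusted p = 0.0138, and 0.0595 without the bird term). NDUFS8 had 27.0, 48.6 and 58.5 FPKM in fat libraries, against 22.8, 30.2 and 47 FPKM in lean libraries. It was higher in 10 of 10 birds (log2 difference 0.49, SE 0.12, adjusted p = 0.0196, and 0.0717 without the bird term). NDUFS3 was a gene of lower level, with 4.44, 7.43 and 10.9 FPKM in fat libraries, against 2.11, 4.12 and 8.69 FPKM in lean libraries. It too was higher in 10 of 10 birds (log2 difference 0.71, SE 0.16, adjusted p = 0.0144, and 0.0743 without the bird term).

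Other core subunits had smaller differences that were not called. NDUFV1, which binds NADH and the flavin, had a log2 difference of 0.22 (adjusted p = 0.263), and NDUFS1, the largest subunit of the matrix arm, one of 0.11 (adjusted p = 0.414). For NDUFV2, which carries an iron-sulfur cluster, the difference was −0.11 (adjusted p = 0.792). The ratio of NDUFS7 to NDUFS1 within a library was 2.66, 3.87 and 5.11 (lowest, median and highest) in fat libraries and 2.12, 2.97 and 4.25 in lean libraries, and it was higher in 9 of 10 fat libraries than in the lean library of the same bird. The ratio of NDUFS8 to NDUFS1 was higher in 7. A ratio within a library does not depend on the size factor, but these ratios were chosen after the values were seen and have no test.

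Among the supernumerary subunits, which surround the core and take no direct part in electron transfer, 4 of 24 tested rose (16.7%, against 5.18% of all symbols). NDUFA12 had 64.1, 120 and 145 FPKM in fat libraries, against 44.3, 83.7 and 128 FPKM in lean libraries. It was higher in 9 birds (log2 difference 0.47, SE 0.11, adjusted p = 0.0170, and 0.148 without the bird term). NDUFA6, a small subunit of the LYR protein family, had 17.3, 32.7 and 49.2 FPKM in fat libraries, against 13.4, 24.3 and 34.5 FPKM in lean libraries. The fat library was higher in 9 birds here as well (log2 difference 0.47, SE 0.13, adjusted p = 0.0276, and 0.190 without the bird term). NDUFA2, a matrix arm subunit with a thioredoxin-like fold, had 12.3, 21.9 and 52.1 FPKM in fat libraries, against 8.62, 16 and 40.6 FPKM in lean libraries. It was higher in 8 birds (log2 difference 0.56, SE 0.16, adjusted p = 0.0354, and 0.193 without the bird term). The calls of these last genes were the least firm of complex I, since that of NDUFA6 was lost without bird 1, 3, 7, 8 or 10 and that of NDUFA2 without bird 2, 3, 7, 8 or 10, with adjusted p of up to 0.0693 and 0.0752.

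NDUFA5, another supernumerary subunit of the matrix arm, varied widely between birds on both days. It had 6.38, 16.9 and 85.8 FPKM in fat libraries and 5.90, 12.2 and 48.0 FPKM in lean libraries. Birds 8 and 9 were highest on both days, with 85.8 and 70.9 FPKM when fat and 48.0 and 30.9 FPKM when lean. On the log2 scale the SD of the bird means was 1.06 and the SD of the differences within birds 0.41, a ratio of 2.58. Set against its own lean library, the fat library was higher in 9 birds (log2 difference 0.56, SE 0.13, adjusted p = 0.0179), and the adjusted p was 0.467 once the bird term was left out.

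**Figure D3:**
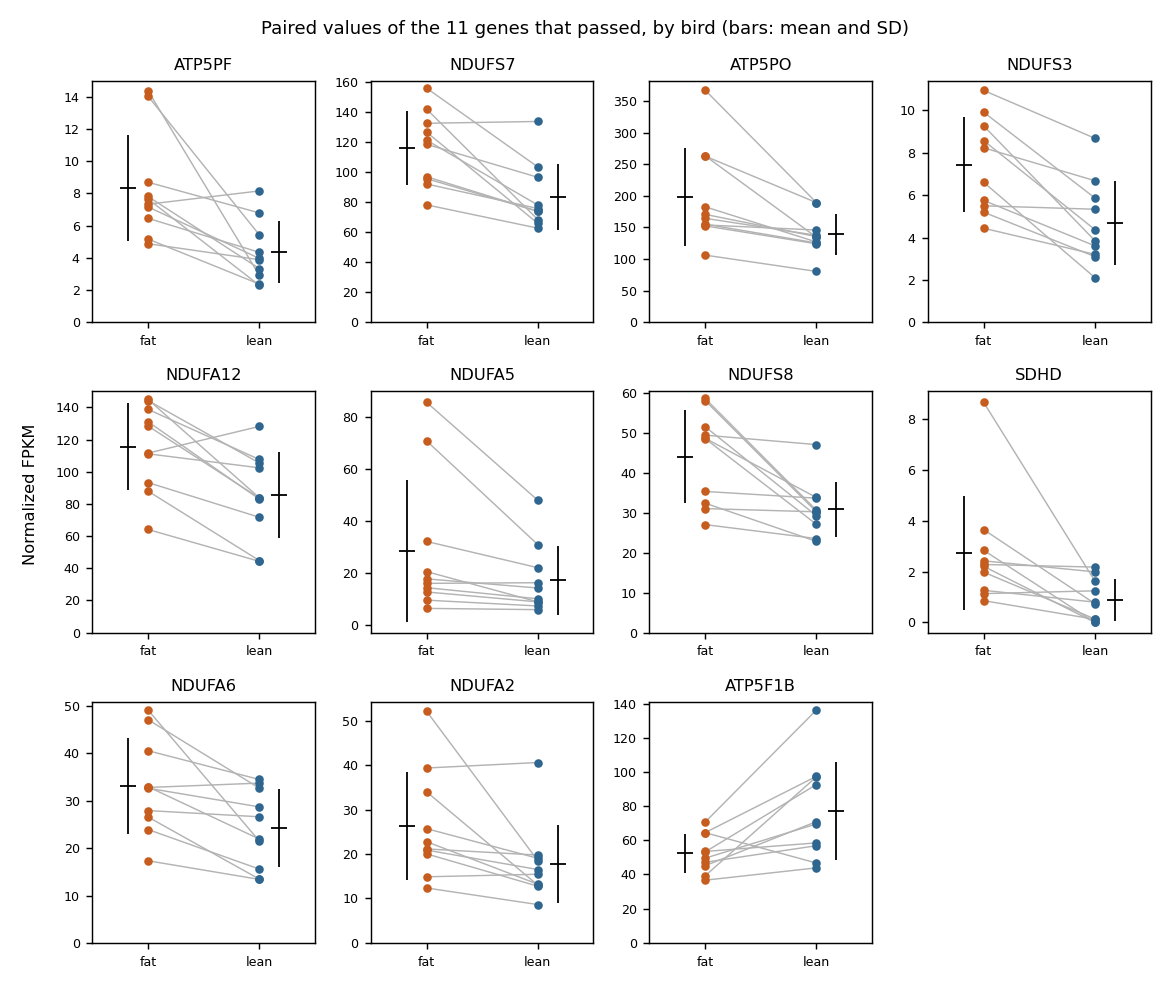
Normalized FPKM of the 11 genes called, fat library at the left and lean library at the right of each panel, with a line for each of the 10 birds and bars for the mean and SD of each condition. In 10 panels nearly all lines are higher at the fat end, whereas those of ATP5F1B are lower there in 9 birds, and the ranges of fat and lean overlap in every panel.

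Several complex I genes had values just outside the threshold. NDUFA1, a small membrane subunit, was higher in 9 birds (log2 difference 0.65, adjusted p = 0.0514), and NDUFB3 had 0.730, 3.43 and 4.88 FPKM in fat libraries against 0, 1.16 and 5.45 FPKM in lean libraries (log2 difference 1.85, adjusted p = 0.0574). On the other side, NDUFV3, an accessory subunit beside NDUFV1, was lower in 9 birds with a log2 difference of −0.45 (adjusted p = 0.0612), and NDUFA11 had one of −0.42 (adjusted p = 0.0689). At an unadjusted p under 0.05, 11 of the 31 genes of complex I were higher and 2 lower, where 11.6% and 18.5% of all symbols were. NDUFAB1, the mitochondrial acyl carrier protein, which also serves fatty acid synthesis, had a median of 17.4 FPKM in fat and 23.6 FPKM in lean libraries (log2 difference −0.25, adjusted p = 0.354).

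The assembly factors of complex I, which help to build it and are absent from the finished enzyme, were listed at low levels. None of the 7 tested was called by limma, where 13.3% of all symbols were. None had an unadjusted p under 0.05, with or without the bird term, where 30.1% of all symbols did with that term. These 7 genes are too few to set against such shares. The median log2 difference of the 7 was −0.41, with 3 above and 4 below 0. NDUFAF8 had 1.36, 2.60 and 4.87 FPKM in fat libraries and 0, 2.03 and 6.16 FPKM in lean libraries (log2 difference 0.33, adjusted p = 0.677). NDUFAF3 had 0, 1.15 and 3.36 FPKM in fat and 0, 1.5 and 4.69 FPKM in lean libraries (log2 difference −0.56, adjusted p = 0.575). The values of NDUFAF1 were 0.470, 1.82 and 3.02 FPKM in fat and 0, 1.21 and 2.40 FPKM in lean libraries, and its difference of 0.96 had an SE of 0.50 (adjusted p = 0.216). NDUFAF7 was at most 0.897 FPKM in fat and 1.26 FPKM in lean libraries, with a difference of −0.66 (adjusted p = 0.538).

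Complex II has 4 subunits, the flavoprotein SDHA, the iron-sulfur protein SDHB, and the membrane anchors SDHC and SDHD that bind ubiquinone and heme. Of the 3 genes tested only the anchor SDHD was called, as higher, and SDHC was listed at 0 in all libraries. Of all symbols 5.18% were called higher, and 3 genes are too few to set against this share. SDHD had 0.855, 2.24 and 8.65 FPKM in the lowest, median and highest fat library, against 0, 0.767 and 2.17 FPKM in lean libraries, where birds 3 and 8 were at 0. It was higher in 9 birds (log2 difference 2.0, SE 0.49, adjusted p = 0.0196, and 0.0486 without the bird term). These are low values, resting on a median coverage of 3.74 reads per base in fat and 1.80 in lean libraries. SDHA, a gene of higher level, had 18.6, 29.6 and 48.8 FPKM in fat and 17.5, 28.9 and 41.6 FPKM in lean libraries, and was higher in 5 birds and lower in 5 (log2 difference 0.17, SE 0.13, adjusted p = 0.405). SDHB had 5.46, 8.65 and 20.2 FPKM in fat and 6.87, 8.30 and 21.2 FPKM in lean libraries (log2 difference −0.09, SE 0.17, adjusted p = 0.763). The levels of the catalytic pair thus overlapped almost fully between conditions. In the zebra finch annotation SDHD shares 360 bases with IL18 on the opposite strand, and IL18 was listed at 0 in 19 of 20 libraries.

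Complex III was represented by 3 small subunits that surround its catalytic core, and none was called by limma or had an unadjusted p under 0.05. Of all symbols 13.3% were called and 30.1% had such a p, and 3 genes are too few to set against these shares. UQCR11 had 0, 42.1 and 59.1 FPKM in fat libraries and 9.53, 35.3 and 58.1 FPKM in lean libraries. The entry of 0 is the fat library of bird 1, and it alone set the sign, since the log2 difference was −0.34 (adjusted p = 0.813) with this bird and 0.64 (adjusted p = 0.0650) without it. UQCR10 had 5.30, 22.3 and 31.4 FPKM in fat and 5.03, 16.2 and 29.3 FPKM in lean libraries (log2 difference 0.25, adjusted p = 0.413). UQCRH, the hinge protein that links cytochrome c1 to cytochrome c, had 8.81, 13.3 and 21.7 FPKM in fat and 4.58, 14.4 and 18.7 FPKM in lean libraries (log2 difference 0.24, adjusted p = 0.388).

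Of complex IV, 4 of 7 genes could be tested, all of them small subunits around the catalytic core. None was called, where 13.3% of all symbols were, and 4 genes are too few to set against that share. COX7C was the one with an unadjusted p under 0.05 in limma, where 30.1% of all symbols had such a p. COX7C had 10.1, 16.4 and 28.5 FPKM in fat libraries and 5.45, 11.8 and 22 FPKM in lean libraries, and was higher in 8 birds (log2 difference 0.48, SE 0.19, adjusted p = 0.113). COX6A1, the isoform of most tissues in mammals, was the highest, with 21.2, 39.7 and 53.6 FPKM in fat and 16.6, 35.5 and 67.9 FPKM in lean libraries (log2 difference 0.06, adjusted p = 0.841). COX7A2 had 1.07, 4.22 and 11 FPKM in fat and 2.11, 3.53 and 7.88 FPKM in lean libraries (log2 difference 0.23, adjusted p = 0.536). COX7B had 0, 3.41 and 6.88 FPKM in fat and 0, 0.908 and 9.40 FPKM in lean libraries. It was above 0 in 8 fat and 5 lean libraries, and its log2 difference of 1.72 had an SE of 1.06 (adjusted p = 0.290). All 4 differences lay above 0, and none was large beside the spread between birds after adjustment.

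In the fit with the bird term and all birds, the ATP synthase was the only complex with calls in both directions. Complex I had both too under the stricter filter (mean of at least 1 FPKM), under quantile normalization and without bird 3. The median log2 difference of the ATP synthase genes was 0.31. Of the 16 tested, 2 were called higher (12.5%) and 1 lower, where 5.18% and 8.08% of all symbols were. The calls fell in different parts of the enzyme. Its F1 head makes ATP, its peripheral stalk holds the head still, and its membrane part carries the proton-driven ring. Of the 4 stalk subunits 2 rose and all 4 had differences above 0, with a median of 0.54. The head was counted here together with the central stalk (ATP5F1A to ATP5F1E). Of these 5 subunits 1 fell, with a median of 0.10, and none of 6 in the membrane part was called (median 0.34). These parts hold few genes, and a difference between them was not tested.

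ATP5PO, the stalk subunit that caps the head and is also called OSCP, had 106.3, 168 and 367 FPKM in fat libraries, against 80.5, 135 and 189 FPKM in lean libraries. It was higher in 10 of 10 birds (log2 difference 0.46, SE 0.10, adjusted p = 0.0140, and 0.145 without the bird term). ATP5PF, coupling factor 6 of the same stalk, had 4.88, 7.49 and 14.4 FPKM in fat libraries, against 2.30, 3.93 and 8.15 FPKM in lean libraries. It was higher in 9 birds (log2 difference 0.95, SE 0.21, adjusted p = 0.0137) and was called without the bird term too (adjusted p = 0.0333). The gene shares 129 bases with GABPA, which encodes a transcription factor of mitochondrial genes, on the opposite strand, and GABPA had 4.77, 6.32 and 8.17 FPKM in fat libraries and 2.33, 4.88 and 6.89 FPKM in lean libraries (log2 difference 0.41, adjusted p = 0.0585). The library kit kept the strand of the RNA, but the sources used here do not say whether the quantification used it, so the share of the overlap in each level is uncertain. The other stalk subunits were not called, ATP5PD with a log2 difference of 0.37 (higher in 9 birds, adjusted p = 0.0976) and ATP5PB with one of 0.63 (adjusted p = 0.267).

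ATP5F1B, the beta subunit whose active sites make ATP, had 36.7, 51.4 and 70.7 FPKM in fat libraries, against 43.9, 70.3 and 136 FPKM in lean libraries. It was lower in 9 of 10 birds, bird 4 being the exception (log2 difference −0.50, SE 0.14, adjusted p = 0.0367, and 0.110 without the bird term). The call was close to the threshold. It was lost when any 1 of birds 1, 2, 3, 5, 6, 7, 8 and 10 was left out, with adjusted p from 0.0132 to 0.0868 over all 10 birds left out in turn, although the difference stayed between −0.60 and −0.41. Its partner in the head, the alpha subunit ATP5F1A, had 20.9, 30.1 and 36.3 FPKM in fat and 20.4, 26.1 and 33.3 FPKM in lean libraries (log2 difference 0.10, SE 0.09, adjusted p = 0.473). ATP5F1D, the delta subunit of the central stalk, was lower in 8 birds but not called (log2 difference −0.46, adjusted p = 0.0582). ATP5F1E had 111, 204 and 319 FPKM in fat and 59.3, 161 and 312 FPKM in lean libraries (log2 difference 0.32, adjusted p = 0.289), and ATP5F1C, the gamma subunit, had a difference of 0.18 (adjusted p = 0.274).

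Alpha and beta stand in equal number in the enzyme, and the ratio of their RNA was compared within each library. The ratio of ATP5F1B to ATP5F1A was 1.13, 1.69 and 3.38 in fat libraries and 1.73, 2.70 and 6.30 in lean libraries, and it was lower in the fat library in 9 birds. The ratio of ATP5F1B to ATP5PO was 0.146, 0.267 and 0.459 in fat libraries and 0.309, 0.503 and 0.933 in lean libraries, lower in the fat library of all 10 birds. That of ATP5PO to ATP5F1A was 4.25, 6.25 and 11.7 in fat and 3.94, 5.15 and 6.75 in lean libraries, higher in 9 birds. Relative to the stalk subunit, beta was thus lower in each fat library than in the lean library of its bird, whatever the size factor. These ratios were also chosen after the values were seen and have no test.

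**Figure D4:**
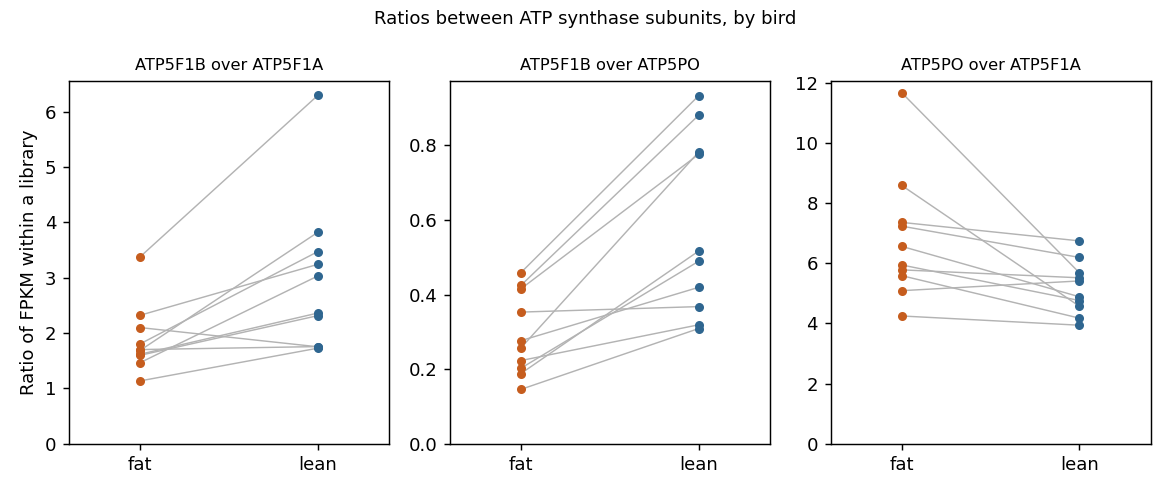
Ratio of normalized FPKM between ATP synthase subunits within a library, fat at the left and lean at the right, with a line for each of the 10 birds. The ratio of ATP5F1B to ATP5PO is lower at the fat end in all 10 birds, and that of ATP5F1B to ATP5F1A is lower in 9.

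The annotation places other transcripts inside ATP5F1B. LOC115491517 and LOC115491518, of 75 and 74 bases, lie within it on the same strand, and both were lower in fat birds, with log2 differences of −3.45 (SE 0.66, adjusted p = 0.00687) and −4.43 (SE 0.71, adjusted p = 0.00352). Their values were 0, 0 and 3.14 FPKM in fat libraries and 0, 6.67 and 10.4 FPKM in lean libraries for LOC115491517. How reads were divided between these short genes and ATP5F1B is not known, so the level of ATP5F1B is uncertain to that extent. Of the 73 genes, 14 are overlapped by another gene that is not a tRNA, and for 5 of them that gene had a mean of at least 1 FPKM.

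In the membrane part, ATP5MC3 and ATP5MC1 encode the same mature ring subunit c. The third gene for it, ATP5MC2, was not analysed here. Of the pair, ATP5MC3 was the higher, with 21.2, 25.9 and 35.0 FPKM in fat and 12, 22.7 and 27.9 FPKM in lean libraries (log2 difference 0.38, higher in 8 birds, adjusted p = 0.110). ATP5MC1 was at most 2.08 FPKM and was listed at 0 in 9 of 20 libraries (log2 difference −0.49, adjusted p = 0.669). ATP5MPL, a small membrane subunit, lay just outside the threshold with 11.7, 16.3 and 22.1 FPKM in fat and 3.03, 11.4 and 18.4 FPKM in lean libraries (log2 difference 0.64, adjusted p = 0.0547). ATP5IF1, the inhibitor that stops the enzyme from running backwards, had 87.8, 114 and 170 FPKM in fat and 85.2, 116.3 and 211 FPKM in lean libraries (log2 difference −0.05, SE 0.11, adjusted p = 0.805). The inhibitor was thus among the most abundant genes of the group, and its levels in fat and lean birds overlapped almost fully.

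Across all 20 libraries the genes moved together only weakly. The median pairwise correlation was 0.10 among the 42 genes above 0 in every library, 0.12 among 22 genes of complex I and 0.09 among 13 of complex V, against −0.003 among 4487 symbols of the same kind. These libraries share birds, conditions and depth, and the values are a description.

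Genes that act beside the respiratory chain were examined in lists of their own. Of 12 citrate cycle enzymes tested, 3 rose in fat birds (25%) and none fell, where 5.18% and 8.08% of all symbols did. The median log2 difference of the 12 was 0.13. MDH2, the mitochondrial malate dehydrogenase, had 41.5, 57.0 and 71.6 FPKM in fat libraries, against 29.0, 40.6 and 56.5 FPKM in lean libraries (log2 difference 0.44, SE 0.09, adjusted p = 0.0115). CS, the citrate synthase that opens the cycle, had 26.8, 55.6 and 78.2 FPKM in fat libraries, against 26.8, 36.4 and 57.5 FPKM in lean libraries (log2 difference 0.53, SE 0.13, adjusted p = 0.0175). IDH3B, a subunit of the NAD-dependent isocitrate dehydrogenase, had a difference of 0.75 (SE 0.18, adjusted p = 0.0170). Without the bird term none of these 3 calls held (adjusted p = 0.0943, 0.0944 and 0.0902 for MDH2, CS and IDH3B).

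Among 13 genes of electron carriers and of enzymes that feed ubiquinone, 1 rose (7.69%) and 1 fell. These counts are near the 5.18% and 8.08% of all symbols that did. SQOR, which passes electrons from sulfide to ubiquinone, had 71.4, 94 and 168 FPKM in fat and 51.0, 92.8 and 109 FPKM in lean libraries (log2 difference 0.36, adjusted p = 0.0473, and 0.249 without the bird term). PDSS1, of the enzyme that makes the ubiquinone side chain, was near 0 in fat birds, with 0, 0.0107 and 0.583 FPKM against 0, 0.713 and 1.95 FPKM in lean libraries (log2 difference −1.90, adjusted p = 0.00486, and 0.0344 without the bird term). CYCS, which encodes cytochrome c, was not called (log2 difference −0.31, adjusted p = 0.393). Of 7 assembly factors of complexes II to V tested, 1 rose (14.3%, against 5.18% of all symbols) and none fell. A share that rests on 1 gene cannot be told from that of all symbols. The 1 that rose was SDHAF2, which helps to attach the flavin to SDHA (log2 difference 0.64, SE 0.19, adjusted p = 0.0376, and 0.235 without the bird term). None of 4 further assembly proteins of complex I and none of 3 partners of complexes IV and V was called, where 13.3% of all symbols were. Of the assembly proteins 2 and of the partners 0 had an unadjusted p under 0.05 in limma, where 30.1% of all symbols had such a p. Groups of 4 and 3 genes are too few to set against these shares.

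Of 16 regulators of mitochondrial genes tested, limma called none, where it called 13.3% of all symbols. The median log2 difference of the 16 was −0.27. At an unadjusted p under 0.05 there were 4 (2 higher and 2 lower), where 30.1% of all symbols had such a p. NRF1, a transcription factor of many respiratory chain genes, had 2.68, 4.10 and 11.4 FPKM in fat and 3.46, 5.39 and 9.0 FPKM in lean libraries (adjusted p = 0.573). PPARGC1A, a coactivator of mitochondrial biogenesis, was at most 0.0792 FPKM in fat and 0.949 FPKM in lean libraries (log2 difference −0.92, adjusted p = 0.0775). Mitochondrial ribosomal proteins, which translate the subunits encoded in mitochondria, had a median log2 difference of 0.23 over 62 genes tested. Of these, 4 (6.45%) were called higher and 2 lower, a share near the 5.18% of all symbols called higher. The difference was above 0 for 43 of the 62. The median of this set was close to that of the 64 respiratory chain genes, and a difference between the sets was not tested.

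**Figure D5:**
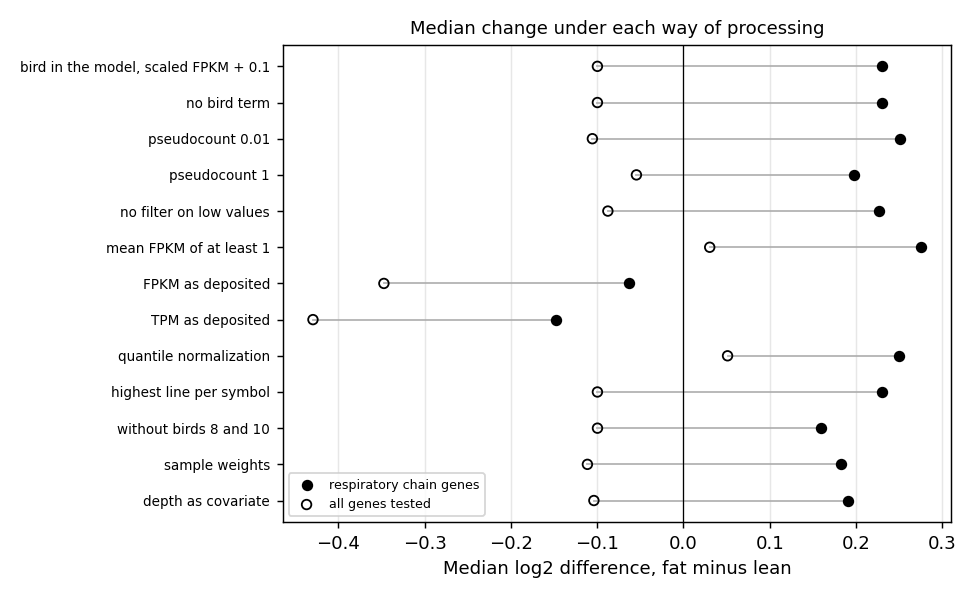
Median log2 difference (fat minus lean) of the respiratory chain genes (filled) and of all symbols tested (open) under each way of processing. The filled point lies to the right of the open one in every row, and both lie left of 0 for FPKM and TPM as deposited.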

How the data were processed

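Reads of 20 whole blood libraries were trimmed with ERNE 2, mapped with STAR to the zebra finch genome (release 106) and quantified with StringTie by the authors. Versions of STAR and StringTie are not given in the sources used here. The deposited tables give coverage, FPKM and TPM of each annotated gene for each library, without normalization between libraries. They hold no read counts, and counting error per gene is therefore not given. The authors' own comparison of conditions used DESeq2 on counts and was not used here.

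FPKM was summed per symbol and divided by median-of-ratio size factors over the 4487 symbols above 0 in every library. Symbols with a mean FPKM of at least 0.1 (7800) were tested on log2(FPKM + 0.1) with limma 3.58.1 in R 4.3.3 (trend, two-sided, Benjamini-Hochberg adjustment, threshold 0.05), with bird as a block. The fit was tested on simulated data. The methods of the paper name no bird term, and the fit without it is an alternative. The numbers pair libraries of 1 bird. Same-numbered libraries had r from 0.152 to 0.382 after removal of the condition means (median −0.02 for libraries of different birds), and 20 of 20 libraries matched their own bird best. Depth in aligned gigabases follows from coverage divided by FPKM. Exact sign-flip tests over the birds served for library measures. Python 3.11.15 with pandas 2.3.3, numpy 2.4.6, scipy 1.17.1 and matplotlib 3.10.9 did the rest.

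The genes, gene lists and tests were chosen with earlier results of these data known. Named in full were the genes called, the 2 with the smallest p and the 2 with the highest level of each complex, the SDH genes, isoform sets and the called genes of each list. Genes named beyond these were chosen after their values were seen. Alternatives were pseudocounts of 0.01 and 1, no filter, a stricter filter (mean of at least 1), the deposited FPKM or TPM without size factors, quantile normalization, the highest line per symbol, no bird term, sample weights, depth as a covariate, leaving out birds 8 and 10, and leaving out each bird. Names of the garden warbler annotation (bSylBor1.pri, RefSeq) were used without coordinates, because its build differs from that of the tables. No sequences were used here. Among the genes that the name rule takes, 1 entered all counts and fits but is not reported here by itself.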

Additional observations from a re-analysis of the deposited data

Results flagged for a closer look

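Among the 54 sets of 10 libraries formed by the 27 named genes tested in each condition, 6 held a library that stood apart from its nearest neighbour by a larger share of the whole range on the log2 scale than Dixon's critical value, and chance gives about 1 in 20 of such sets. Bird 1 was the lowest fat library for UQCR11, listed at 0 FPKM, and for COX6A1, at 21.2 FPKM. Bird 5 was the lowest fat library for COX7A2, at 1.07 FPKM, and the lowest lean library for ATP5PO, at 80.5 FPKM. NDUFAF8 was listed at 0 FPKM in the lean library of bird 8. The fat library of bird 9 was the highest for SDHB, at 20.2 FPKM. Only UQCR11 and NDUFAF8 were at 0 in the library concerned, and of the 6 genes ATP5PO was the one called, with bird 5 left out or kept.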

How the results depend on the processing

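The 10 genes called higher and the 1 called lower became 2 and 0 with no replicate block (all symbols 371 in place of 1034), 2 and 4 on FPKM as deposited, 1 and 6 on TPM as deposited (all symbols 2007), 4 and 3 under quantile normalization (665), and 0 and 0 without birds 8 and 10 (301). No filter gave 8 and 0 (596), a mean FPKM of at least 1 gave 13 and 3, and depth as a covariate gave 8 and 0 (615). Pseudocounts, the highest line per symbol and sample weights kept both counts within 1.5 times. Leaving out 1 bird at a time gave 8 to 11 genes higher and 0 to 1 lower, 554 to 1133 of all symbols, and a mean difference in depth of 0.0949 to 0.594 gigabases, which passed the test only with bird 4 left out. Of the 11 genes called, 9 lost the call without the bird term, and none of the 11 changed sign in any setting.

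Signs turned only in genes that were not called, in 16 of the 64 on FPKM as deposited, 23 on TPM, 9 without birds 8 and 10, 1 to 6 with single birds left out and at most 4 in any other setting. Among the genes named by the rule, those that turned on FPKM as deposited were COX6A1 (−0.25), COX7A2 (−0.069), SDHA (−0.14), UQCR10 (−0.056) and UQCRH (−0.064), and on TPM ATP5F1E (−0.086), ATP5MC3 (−0.022), COX6A1 (−0.34), COX7A2 (−0.16), NDUFAF8 (−0.021), SDHA (−0.24), UQCR10 (−0.15) and UQCRH (−0.16). Quantile normalization turned COX6A1 (−0.039). Without birds 8 and 10 it was ATP5MC1 (0.33), COX6A1 (−0.049), NDUFAF8 (−0.25) and UQCR10 (−0.024). Over single birds left out, differences spanned −0.072 to 0.15 for COX6A1 and −0.15 to 0.53 for NDUFAF8 (both turned without bird 8), −0.16 to 0.038 for SDHB (turned without bird 7) and −0.60 to 0.64 for UQCR11 (turned without bird 1). The cause was not tested. Read counts were not used, so genes at 0 in some libraries cannot be told from genes below detection.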
